A study of Mus musculus with 16 samples.

Results

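Sfmbt2, AW551984, Tnnt2, Pcdh20, Asl, Rbm11, Polr2a, Gprasp2, Abca8a and AW495222 are 10 genes chosen by their large log2 difference between the striatum of R6/2 mice and that of wild type. They are 10 of the 18193 genes that the array names by a single symbol, and 17 of 34945 single-symbol probe sets measure them. A probe set is the group of short probes that together read out a transcript. The choice used the R6/2 and wild-type arrays, so values from that comparison are given as a description with no test. The smallest difference among the 10 was that of Abca8a, at 0.67 on the log2 scale, and 20 other genes had a difference at least as large at their brightest probe set. The choice therefore fixed no sharp threshold.

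RNA was taken from whole striatum of mice of the B6xCBA strain in 4 groups of 4 biological replicates. The first group, R6/2 x DREAM+/-, came from crossing DREAM knockout mice with R6/2 mice and carries the R6/2 transgene with 1 knockout allele of DREAM (gene Kcnip3). DREAM+/- mice carry that allele without the transgene, R6/2 mice carry the transgene on an intact DREAM background, and wild-type mice carry neither. The transgene models Huntington's disease with a fragment of the human huntingtin gene, its exon 1, in which the CAG repeat is expanded. The labels give the cell type as striatal neurons, but the RNA protocol used the whole tissue, in which markers of glia and vessels were also measured. The sources used here do not give age, sex or pooling.

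Huntington's disease strikes the medium spiny neurons, through which the striatum sends its output, and expanded huntingtin disturbs transcription in them. DREAM is a calcium-binding protein that represses target genes by binding a DNA element with the core letters GTCA. The 10 genes belong to no single pathway. They include a Polycomb protein (Sfmbt2), the catalytic subunit of RNA polymerase II (Polr2a), a splicing regulator (Rbm11), membrane and trafficking proteins (Pcdh20, Gprasp2, Abca8a), a urea-cycle enzyme (Asl), a contractile protein (Tnnt2), a long non-coding RNA by RefSeq annotation (AW495222) and a protein-coding gene known here by its sequence name alone (AW551984).

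Kcnip3 was lower in both groups labelled with the knockout allele. Its brighter probe set averaged 7.56 in R6/2 x DREAM+/- and 7.77 in DREAM+/-, against 9.11 in R6/2 and 9.67 in wild type (log2, n = 4 each). The dimmer one, 1449129_a_at, averaged 5.40 and 5.58, against 7.995 and 8.53, a wider gap. At both probe sets each group with the allele lay more than 1 log2 unit, a 2-fold change, below its counterpart without it. The number of intact alleles was not measured. Correlations between replicates lay between 0.9906 and 0.998. R6/2 x DREAM+/- replicate 3 had the lowest mean correlation with its own group, 0.9915, where the other 15 arrays had 0.9933 to 0.998. R6/2 replicate 1 had 6.49 for Xist (probe set 1436936_s_at), the RNA that coats the inactive X chromosome, where the other 15 arrays had 11.04 to 12.16. For the 10 genes, results are given with and without these 2 arrays where that changes a call. Some counts over the family lists are also given without them. Calls of markers, neighbouring genes and single list genes are given with all arrays only. The number of arrays limits the precision of every value.

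RefSeq promoter sequences (build GRCm38.p6) were at hand for 9 of the 10 genes, all but Asl. They are shown because DREAM acts through a short promoter element and because the 10 genes were high together. The 4 below hold, between them, each kind of searched element that was found in any of the 9 apart from the GTCA core, which is not capitalised. Each runs 5′ to 3′ on the gene's strand over the 250 bases before its most upstream listed start, and capitals mark an E-box, a TATA box or a GC box, read on either strand and spelled out after the sequences.
Sfmbt2, chr2:10370201-10370450, plus strand: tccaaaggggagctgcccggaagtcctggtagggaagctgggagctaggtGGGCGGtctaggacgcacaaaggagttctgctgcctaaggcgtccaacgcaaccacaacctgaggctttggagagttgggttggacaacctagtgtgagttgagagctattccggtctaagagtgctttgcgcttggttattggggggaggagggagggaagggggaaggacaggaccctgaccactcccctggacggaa
Polr2a, chr11:69758634-69758883, minus strand: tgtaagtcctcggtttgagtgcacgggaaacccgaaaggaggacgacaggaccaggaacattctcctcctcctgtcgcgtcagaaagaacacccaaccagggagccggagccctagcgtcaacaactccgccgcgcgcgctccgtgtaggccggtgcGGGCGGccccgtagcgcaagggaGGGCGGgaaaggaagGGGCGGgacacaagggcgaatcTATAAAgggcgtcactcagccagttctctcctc
AW551984, chr9:39604271-39604520, minus strand: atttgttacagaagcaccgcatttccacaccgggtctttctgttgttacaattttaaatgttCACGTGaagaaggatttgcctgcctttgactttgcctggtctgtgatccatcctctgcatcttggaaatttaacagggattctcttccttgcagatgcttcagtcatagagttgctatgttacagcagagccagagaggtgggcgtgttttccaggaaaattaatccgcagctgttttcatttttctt
Abca8a, chr11:110095938-110096187, minus strand: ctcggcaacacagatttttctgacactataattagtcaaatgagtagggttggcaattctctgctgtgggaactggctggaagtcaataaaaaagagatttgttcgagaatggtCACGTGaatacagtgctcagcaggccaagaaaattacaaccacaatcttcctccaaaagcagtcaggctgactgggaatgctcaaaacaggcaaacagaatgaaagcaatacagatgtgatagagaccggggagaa
The elements were searched on both strands in 27025 promoters of the same length, and the list of elements was written after the members' sequences had been seen. The E-box, CACGTG, was in 2 of the 9 (AW551984 and Abca8a) and in 6.04% of all promoters. The GC box, GGGCGG, was in 4 of the 9 (Gprasp2, Polr2a, Rbm11 and Sfmbt2) and in 33.0% of all. The TATA box, TATAAA, was in 1, Polr2a, and in 13.0% of all. GTCA, the core that DREAM binds, was in 6 of the 9 (AW551984, Abca8a, Pcdh20, Polr2a, Rbm11 and Sfmbt2) and in 80.2% of all. TGACTCA (AP-1 site) and TGACGTCA (CRE) were in 0 of the 9, against 4.43% and 1.60% of all. TGACTCA and TGACGTCA each contain GTCA on one strand or the other, and the other elements do not. Base composition was close to that of other promoters: the members' median GC content was 54.0%, with a range of 36.8% to 62.8%, and the median over all was 52.0%. Bases after the start were not searched for any element, GTCA included. A match of letters is not a measured binding site.

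The test of the 10 genes was R6/2 x DREAM+/- against DREAM+/-, which asks whether the transgene raised them also on the DREAM+/- background. Its difference shares no array with the comparison used for the choice. The members were, however, chosen with earlier results of these data known, and whether those included this comparison is not recorded. The spread behind its intervals and adjusted p was estimated from all 16 arrays, which include those used for the choice. At the brightest probe set, 9 of the 10 genes rose and 0 fell, where 3.63% of all genes rose and 4.71% fell (limma, Benjamini-Hochberg adjusted p under 0.05 over 34945 probe sets). The 9 were all but Rbm11. In whole tissue, a change in the share of cells of a type and a change in RNA per cell cannot be told apart. The groups did not overlap for the same 9 of 10, where 8.17% of all genes were higher without overlap. The median difference over the 10 was 0.69, with a range of 0.43 to 1.09, where the median over all probe sets was 0.01 (log2). Of the 17 probe sets, 12 rose and 0 fell, where 2.91% of all probe sets rose and 4.01% fell. The brightest probe sets of 8 of these genes were among the 100 largest differences upward of all 34945 probe sets. Without both arrays that stand apart, 9 genes and 11 probe sets rose. With only the 8 arrays compared, whose spread left out the arrays used for the choice, 9 genes and 12 probe sets rose. In R6/2 against wild type the groups did not overlap for any of the 10 genes, where 11.1% of all genes were higher without overlap, and nothing is read from this because the choice used it.

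**Figure D1:**
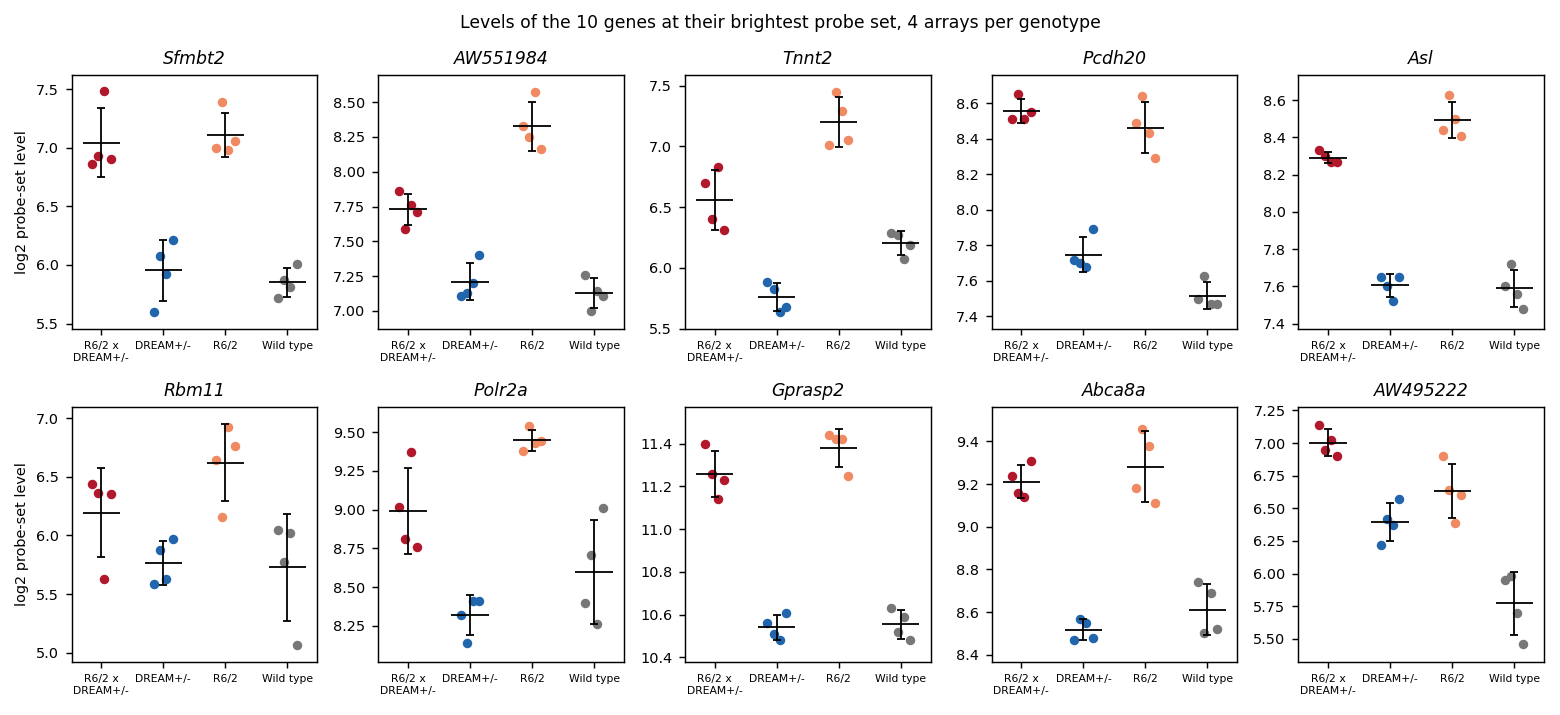
Log2 probe-set level (y axis, 1 scale per panel) of each of the 10 genes at its brightest probe set; points are arrays, the wide bar is the mean and the error bar the SD (n = 4). Both groups with the R6/2 transgene lie above their counterparts without it in each panel except Rbm11, where R6/2 x DREAM+/- replicate 3 at 5.63 sits among the DREAM+/- arrays.

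Sfmbt2, a Polycomb group protein with MBT domains that acts in gene silencing, had the largest difference of the 10. Its log2 levels were 6.86, 6.93, 7.48 and 6.90 in R6/2 x DREAM+/-, against 5.60, 6.08, 5.92 and 6.21 in DREAM+/-. Every R6/2 x DREAM+/- array was above every DREAM+/- array, and replicate 3 was well above its 3 fellows. The rise was 1.09 (SE 0.14, 95% interval 0.79 to 1.39), or 2.13-fold, with a limma adjusted p of 0.000167, and only 2 of 34945 probe sets had a larger one. In the comparison used for the choice, levels were 7.00, 7.39, 6.98 and 7.06 in R6/2, against 5.72, 5.87, 5.81 and 6.01 in wild type, a difference of 1.26 with no overlap. A dimmer probe set, 1443176_at, rose by 0.25 (limma adjusted p = 0.0136) but differed by 0.02 between R6/2 and wild type. Its call was lost without DREAM+/- replicate 2 (adjusted p = 0.0606, with a range of 0.00928 to 0.0606 over the alternatives).

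Of 37 other Polycomb genes on a list, 35 were measured. In R6/2 x DREAM+/- against DREAM+/-, 4 rose and 0 fell, where 3.63% of all genes rose and 4.71% fell. These shares also stand beside the lists that follow. The median difference of the Polycomb genes was 0.05, where that of all genes was 0.02. L3mbtl3, another MBT-domain protein, rose by 0.49 (limma adjusted p = 0.000226). Bmi1, a core subunit of Polycomb repressive complex 1, rose by 0.40 (adjusted p = 0.0107). Phf1 and Eed, which work with Polycomb repressive complex 2, rose by 0.29 and 0.26. In R6/2 against wild type, 3 rose and 1 fell, where 8.22% of all genes rose and 7.44% fell, and L3mbtl3, Bmi1 and Phf1 were the 3 that rose. Phf1 was also lower on the DREAM+/- background, by 0.39 both in R6/2 x DREAM+/- against R6/2 and in DREAM+/- against wild type (limma adjusted p = 0.00248 and 0.00438).

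Polr2a encodes the catalytic subunit of RNA polymerase II, the enzyme that transcribes messenger RNA. Its brighter probe set read 9.02, 8.81, 9.37 and 8.76 in R6/2 x DREAM+/-, against 8.32, 8.14, 8.41 and 8.41 in DREAM+/-. No arrays overlapped, and the rise was 0.67 (SE 0.14, 95% interval 0.37 to 0.97; limma adjusted p = 0.00791), or 1.59-fold. Without R6/2 x DREAM+/- replicate 3, the highest of its group, it was 0.54 (adjusted p = 0.0161, with a range of 0.00187 to 0.036 over the alternatives). Levels were 9.38, 9.54, 9.43 and 9.44 in R6/2, against 8.40, 8.71, 8.26 and 9.01 in wild type, so the R6/2 arrays lay close together and the wild-type arrays were spread widely. The dimmer probe set, 1422311_a_at, gave 7.45, 7.23, 7.43 and 7.50 in R6/2 x DREAM+/-, against 7.41, 7.38, 7.42 and 7.32 in DREAM+/-, with overlap and a difference of 0.02 (limma adjusted p = 0.956). The 2 probe sets of Polr2a thus gave unlike readings. Of 12 other subunit genes of the polymerase on a list, 10 were measured, and 0 passed in either direction in this comparison (median 0.06). Polr2m, which associates with the polymerase, was the only 1 to pass in R6/2 against wild type, at 0.27 (adjusted p = 0.0157).

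Rbm11, an RNA-binding protein that regulates splicing in brain and testis, was the gene that did not pass. Its levels were 6.44, 6.36, 5.63 and 6.35 in R6/2 x DREAM+/-, against 5.59, 5.88, 5.63 and 5.97 in DREAM+/-. Replicates 1, 2 and 4 of R6/2 x DREAM+/- were above all DREAM+/- arrays, and replicate 3 was level with the second lowest of them. The difference was 0.43 (SE 0.21, 95% interval -0.03 to 0.88; limma adjusted p = 0.293, with a range of 0.0499 to 0.509 over the alternatives). Without replicate 3 it was 0.62 (adjusted p = 0.0696). In R6/2 the levels were 6.64, 6.16, 6.92 and 6.76, against 6.05, 5.77, 6.02 and 5.07 in wild type. Wild-type replicate 4 was far below the other 3. Over 16 arrays, Rbm11 was the only 1 of the 10 genes whose brightest probe set was below the 40th percentile of means (6.35). Sfmbt2 and Tnnt2 were above it only through the groups with the transgene. Of 23 other neural and RBM-family splicing regulators on a list, 20 were measured, of which 2 rose and 1 fell. Nova1 rose by 0.24 (limma adjusted p = 0.0184) and Rbm25 by 0.20 (adjusted p = 0.0278), while Rbfox1 fell by 0.30 (adjusted p = 0.000465). Nova1 and Rbfox1 also passed in R6/2 against wild type, at 0.40 and -0.32.

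Pcdh20 is a non-clustered protocadherin, a membrane protein of the cadherin superfamily that mediates adhesion between cells. Its brighter probe set read 8.51, 8.65, 8.51 and 8.55 in R6/2 x DREAM+/-, against 7.72, 7.70, 7.68 and 7.89 in DREAM+/-. The groups were far apart relative to their spread, with a rise of 0.81 (SE 0.07, 95% interval 0.66 to 0.96; limma adjusted p = 5.43e-06), or 1.75-fold. The second probe set, 1451454_at, read 7.46, 7.68, 7.01 and 7.40 in R6/2 x DREAM+/-, against 6.61, 6.76, 6.63 and 6.70 in DREAM+/-, and rose by 0.71 (adjusted p = 0.000438). Both probe sets of Pcdh20 therefore passed with no overlap. In R6/2 the brighter one read 8.49, 8.64, 8.43 and 8.29, against 7.50, 7.63, 7.47 and 7.47 in wild type, again with no overlap. Of 10 other non-clustered protocadherins, 1 rose and 0 fell, with a median of 0.04: Pcdh19 rose by 0.54 (adjusted p = 0.0131) and was also higher in R6/2 than in wild type, by 0.68 (adjusted p = 0.00142).

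Gprasp2 encodes a sorting protein that binds G protein-coupled receptors and steers them within the cell. It was the brightest of the 10 genes on the array, with 11.40, 11.26, 11.14 and 11.23 in R6/2 x DREAM+/-, against 10.56, 10.51, 10.48 and 10.61 in DREAM+/-. The groups did not overlap, and the rise was 0.72 (SE 0.06, 95% interval 0.59 to 0.85; limma adjusted p = 5.08e-06), or 1.64-fold. R6/2 levels were 11.44, 11.42, 11.42 and 11.25, against 10.63, 10.52, 10.59 and 10.48 in wild type. Gprasp2 lies on the X chromosome, and R6/2 replicate 1, the array with low Xist, had 11.44, close to replicates 2 and 3. The GASP and ARMCX genes are relatives of Gprasp2, most of them in the same X-linked cluster in mammals. Of 9 measured, 5 rose and 0 fell in R6/2 x DREAM+/- against DREAM+/-, with a median of 0.23. Armcx5 rose by 0.56 (limma adjusted p = 0.000462), Gprasp1 by 0.29 (adjusted p = 0.000762) and Armcx1 by 0.23 (adjusted p = 0.00322), and Armcx2 and Armcx4 by 0.29 each. In R6/2 against wild type 4 of the 9 rose and 0 fell, among them Armcx5 at 0.47 and Gprasp1 at 0.37.

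Abca8a is a transporter of the ABCA family, whose members move lipids across membranes. Its levels were 9.24, 9.16, 9.14 and 9.31 in R6/2 x DREAM+/-, against 8.47, 8.57, 8.55 and 8.48 in DREAM+/-. The spread within each group was small, and the rise was 0.70 (SE 0.08, 95% interval 0.53 to 0.86; limma adjusted p = 4.1e-05), or 1.62-fold. In R6/2 the levels were 9.18, 9.46, 9.38 and 9.11, against 8.74, 8.50, 8.69 and 8.52 in wild type, a difference of 0.67. Abca8a was the only 1 of the 10 genes whose difference was not smaller on the DREAM+/- background. Choosing genes for a large R6/2 minus wild-type difference favours smaller ones in other arrays, so nothing is read from this. Of 15 other ABCA genes on a list, 13 were measured, and 2 rose and 0 fell, with a median of 0.11. Abca1, which exports cholesterol to apolipoproteins, rose by 0.51 (limma adjusted p = 0.000179), and Abca7 by 0.47 (adjusted p = 0.0035). Abca8b, the neighbouring paralog of Abca8a, passed in R6/2 against wild type at 0.38 (adjusted p = 0.0019) and differed by 0.22 in R6/2 x DREAM+/- against DREAM+/- without passing (adjusted p = 0.0827).

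**Figure D2:**
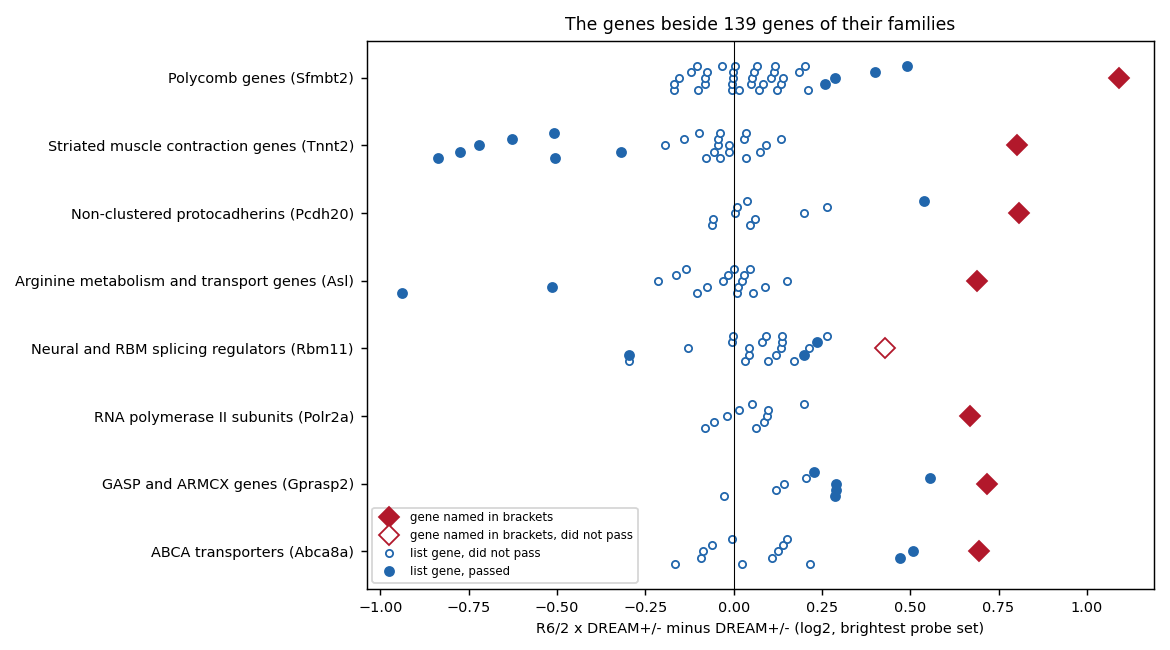
Log2 difference of R6/2 x DREAM+/- minus DREAM+/- (x axis) for 139 genes of 8 lists (circles, filled where limma adjusted p was under 0.05), with the gene that gave each list its name as a diamond. Each diamond lies to the right of every circle in its row; the filled circles of the muscle row, 7 in all, lie left of 0.

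Asl, argininosuccinate lyase, releases arginine and fumarate in the urea cycle and in the pathway that renews arginine for nitric oxide synthesis. Its levels were 8.33, 8.30, 8.27 and 8.27 in R6/2 x DREAM+/-, against 7.65, 7.60, 7.52 and 7.65 in DREAM+/-. The arrays of each group lay close together, and the rise was 0.69 (SE 0.06, 95% interval 0.56 to 0.81; limma adjusted p = 5.08e-06), or 1.61-fold. R6/2 levels were 8.44, 8.63, 8.50 and 8.41, against 7.60, 7.72, 7.56 and 7.48 in wild type. Of 18 other genes of arginine metabolism and transport, 0 rose and 2 fell, with a median of -0.01. Arg2, mitochondrial arginase, fell by 0.94 (limma adjusted p = 0.000952), and Nos1, neuronal nitric oxide synthase, fell by 0.51 (adjusted p = 0.0202). In R6/2 against wild type Arg2 fell by 1.12 (adjusted p = 0.000103) and Slc7a2, a cationic amino acid transporter, by 0.36 (adjusted p = 0.012), while Nos1 differed by -0.38 without passing (adjusted p = 0.0615). Asl and Arg2 thus moved in opposite directions.

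Tnnt2 encodes cardiac troponin T, which anchors the troponin complex to tropomyosin on thin filaments of the heart. Its brightest probe set read 6.70, 6.40, 6.83 and 6.31 in R6/2 x DREAM+/-, against 5.88, 5.83, 5.64 and 5.68 in DREAM+/-. The groups did not overlap, and the rise was 0.80 (SE 0.11, 95% interval 0.56 to 1.04; limma adjusted p = 0.00032), or 1.74-fold. R6/2 levels were 7.01, 7.45, 7.29 and 7.05, against 6.29, 6.27, 6.07 and 6.19 in wild type. The second probe set, 1424967_x_at, read 6.54, 6.45, 6.70 and 6.24 in R6/2 x DREAM+/-, against 6.13, 6.13, 6.09 and 5.83 in DREAM+/-, and rose by 0.44 (limma adjusted p = 0.0396). That call was lost without both arrays that stand apart (adjusted p = 0.0852), without any 1 array of DREAM+/- or any of replicates 1 to 3 of R6/2 x DREAM+/-, without wild-type replicate 1 and under quantile normalization, with a range of 0.00481 to 0.121 over all alternatives. The third, 1440424_at, was dim, at 4.34 to 4.47 in R6/2 x DREAM+/- and 4.32 to 4.39 in DREAM+/-, and did not pass (adjusted p = 0.693).

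Of 24 other genes of striated muscle contraction, 0 rose and 7 fell in R6/2 x DREAM+/- against DREAM+/-, with a median of -0.05. Myh7, a slow myosin heavy chain, fell by 0.78 (limma adjusted p = 0.000132), and Actn2, an alpha-actinin that crosslinks actin, by 0.72 (adjusted p = 0.000137). Tpm1, the tropomyosin to which troponin T binds in the heart, fell by 0.51 (adjusted p = 0.000319). Tnnt1, the slow skeletal troponin T, fell by 0.63 and Myl4, an atrial myosin light chain, by 0.84. The other 2 that fell were Acta1 and Nebl. In R6/2 against wild type 1 rose and 8 fell, Myl4 by 1.35 and Actn2 by 0.71. Several of these genes are also expressed in neurons, and their cell of origin was not measured.

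AW551984 had the second largest difference in the comparison used for the choice and, among the 10, the widest gap between that comparison and the one on the DREAM+/- background. Its brightest probe set read 7.86, 7.59, 7.76 and 7.71 in R6/2 x DREAM+/-, against 7.11, 7.13, 7.20 and 7.40 in DREAM+/-. Its groups did not overlap, and the rise was 0.52 (SE 0.09, 95% interval 0.33 to 0.71; limma adjusted p = 0.00171), or 1.43-fold. R6/2 levels were 8.33, 8.25, 8.57 and 8.16, against 7.26, 7.00, 7.14 and 7.11 in wild type, a difference of 1.20. Every R6/2 array was therefore above every R6/2 x DREAM+/- array. The other 2 probe sets of AW551984 were dim and did not pass, at 0.12 for 1433435_at (adjusted p = 0.46) and 0.07 for 1447300_at (adjusted p = 0.67). Whether the transgene's difference itself depended on the background was not tested, since the choice used R6/2 against wild type.

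AW495222, the long non-coding RNA, read 7.14, 6.95, 7.02 and 6.90 in R6/2 x DREAM+/-, against 6.22, 6.42, 6.37 and 6.57 in DREAM+/-. No overlap was seen, and the rise was 0.61 (SE 0.12, 95% interval 0.36 to 0.85; limma adjusted p = 0.00384), or 1.52-fold. R6/2 levels were 6.90, 6.64, 6.39 and 6.60, against 5.95, 5.98, 5.70 and 5.46 in wild type. Its mean was 7.00 in R6/2 x DREAM+/- and 6.40 in DREAM+/-, and 6.63 in R6/2 and 5.77 in wild type, so that, as for Pcdh20, it was highest with both alleles and lowest with neither.

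**Figure D3:**
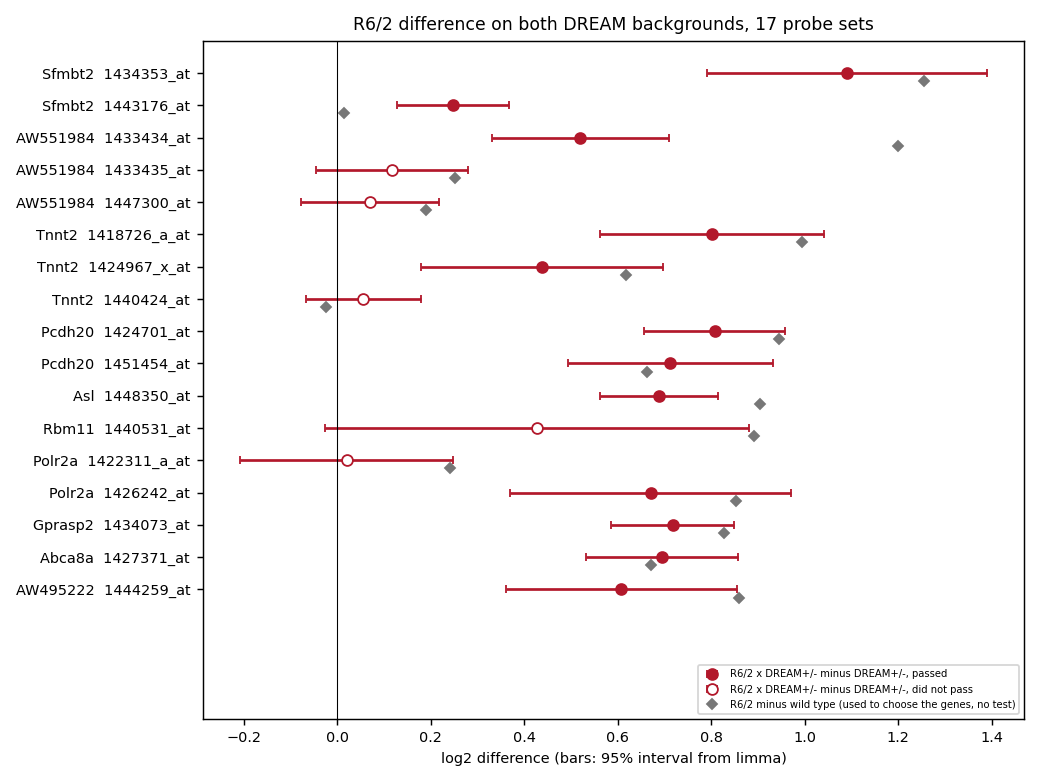
Log2 difference (x axis) of the 17 probe sets between R6/2 x DREAM+/- and DREAM+/- (circles with the 95% limma interval, filled where adjusted p was under 0.05) and between R6/2 and wild type (grey diamonds, no test). The 17 circles all lie right of 0, and 12 are filled.

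Probe sets of 1 gene did not read alike. Of the 5 genes with several probe sets, only Pcdh20 had all of them pass with a difference over 0.5. Of the 17 probe sets, 12 were at or above the 40th percentile of brightness. The 5 below it were those of Rbm11, the dimmer one of Sfmbt2, the dimmest of Tnnt2 and the dimmer 2 of AW551984. Brightness was the mean over 16 arrays, the raised groups included. Sfmbt2 1434353_at averaged 5.95 in DREAM+/- and 5.85 in wild type, under the cut of 6.35. Tnnt2 1418726_a_at (5.76 and 6.205) and 1424967_x_at (6.045 and 6.18) were also under it there. These passed the cut only through the groups with the transgene. The dim probe sets of Sfmbt2, AW551984 and Tnnt2 had means of 4.37 to 5.51 over all arrays and differences of 0.06 to 0.25. The dimmer probe set of Polr2a, at 7.45, was not below that percentile, and its difference was 0.02. Which transcripts each probe set reads was not examined, and 0 probe sets named a member together with another gene.

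**Figure D4:**
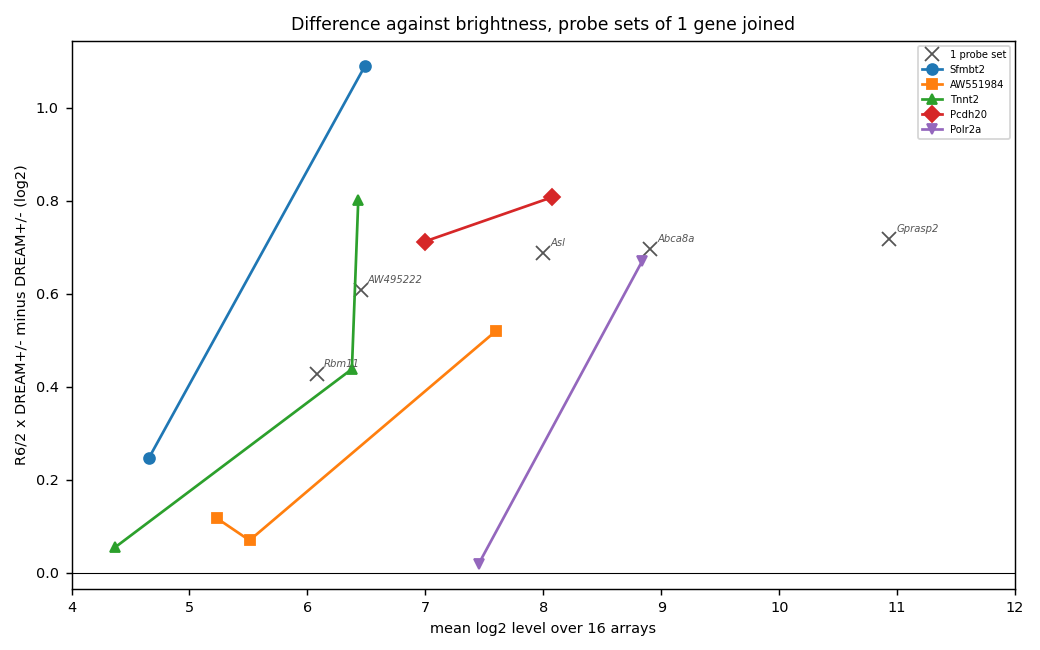
Log2 difference of R6/2 x DREAM+/- minus DREAM+/- (y axis) against the mean log2 level over 16 arrays (x axis), with probe sets of 1 gene joined by a line and genes with a single probe set as crosses. In each of the 5 joined genes the brightest probe set has the largest difference.

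The DREAM+/- allele was set beside these values in 2 further comparisons, which share arrays with the comparison used for the choice and are given as a description. Choosing a large R6/2 minus wild-type difference favours values below 0 in R6/2 x DREAM+/- against R6/2. It likewise favours values above 0 in DREAM+/- against wild type, so no effect of the allele is read from these counts. In DREAM+/- against wild type, 6 genes were above 0 and 4 below at the brightest probe set, with a median of 0.03. The groups did not overlap for 2 genes that were higher and 1 that was lower, where 3.82% and 6.20% of all genes were so. The 2 were AW495222, at 0.62, and Pcdh20, at 0.23, and the 1 was Tnnt2, at -0.45. The other probe sets of Pcdh20 (1451454_at, 0.05) and Tnnt2 (1424967_x_at, -0.14, and 1440424_at, -0.02) overlapped there. In R6/2 x DREAM+/- against R6/2, 2 genes were above 0 and 8 below, with a median of -0.16, where the median over all probe sets was -0.03. Groups did not overlap for 0 genes that were higher and 4 that were lower, where 4.82% and 7.99% of all genes were so. The 4 were Tnnt2 at -0.64, AW551984 at -0.60, Polr2a at -0.46 and Asl at -0.20. Among their other probe sets, Tnnt2 1424967_x_at (-0.32) and 1440424_at (0.06), Polr2a 1422311_a_at (-0.23) and AW551984 1433435_at (-0.08) overlapped. AW551984 1447300_at (-0.19) was lower without overlap. Sfmbt2, Pcdh20, Gprasp2 and Abca8a differed by -0.13 to 0.09, with overlapping groups. Rbm11 differed by -0.43, with overlap, and AW495222 by 0.37, with a tie at 6.90.

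**Figure D5:**
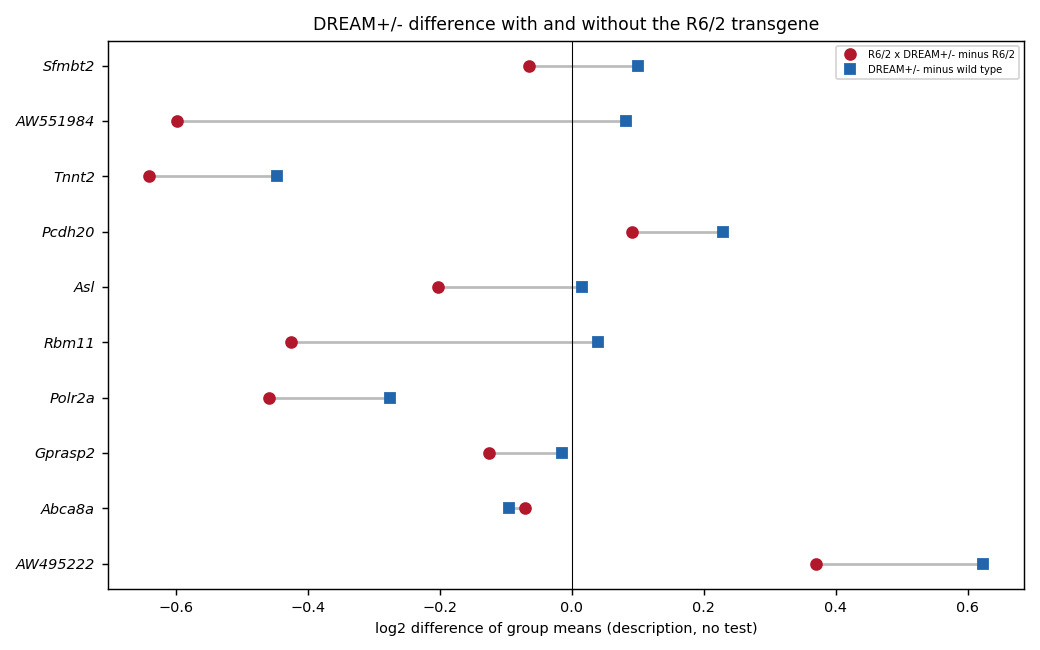
Log2 difference of group means (x axis) for each gene between R6/2 x DREAM+/- and R6/2 (red circles) and between DREAM+/- and wild type (blue squares), at the brightest probe set and with no test. Tnnt2 lies left of 0 in both, AW495222 and Pcdh20 right of 0 in both, and AW551984 lies at -0.60 with the transgene and at 0.08 without it.

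By group mean the order of the 4 genotypes was not the same for all 10 genes. R6/2 was highest for 8 genes, and R6/2 x DREAM+/- for Pcdh20 and AW495222. For Sfmbt2, Pcdh20 and Abca8a the means in R6/2 x DREAM+/- and R6/2 differed by less than the larger SD of the 2 groups. For Sfmbt2, AW551984, Asl, Rbm11, Gprasp2 and Abca8a the groups DREAM+/- and wild type overlapped and differed by 0.10 or less. Polr2a averaged 8.32 ± 0.13 in DREAM+/- and 8.60 ± 0.34 in wild type (SD, n = 4 each), which overlapped.

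Genes beside the 10 on the chromosome were read out for 20 neighbours, 1 on each side. In R6/2 x DREAM+/- against DREAM+/-, 2 of the 20 rose and 0 fell, where 3.63% of all genes rose and 4.71% fell. The 2 were Hspa13 beside Rbm11, at 0.27 (limma adjusted p = 0.0141), and Gprasp1 beside Gprasp2, at 0.29. In R6/2 against wild type, 7 of 20 rose and 0 fell, where 8.22% of all genes rose and 7.44% fell. The 7 were Hspa13, Gprasp1, Prkcq beside Sfmbt2 (0.25), Lad1 beside Tnnt2 (0.37), Abca8b beside Abca8a (0.38), and both neighbours of AW495222, Arsb (0.35) and Dmgdh (0.25). None of these was as large as the difference of the gene beside it. In R6/2 against wild type the choice of genes with a large difference favours this, so nothing is read from it there.

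For each of the 10 genes, the gene with the nearest profile was the one with the smallest mean absolute difference over 16 arrays, once each profile had its own mean taken off. Mri1 was nearest to both Asl (0.0827) and Sfmbt2 (0.238), and Rgs19 to both Gprasp2 (0.0911) and Abca8a (0.0933). Pcdh20 was nearest to Rtp4 (0.119), Polr2a to Pcdh19 (0.121), AW551984 to Insyn2b (0.147), AW495222 to Rad18 (0.174), Tnnt2 to Onecut2 (0.190) and Rbm11 to Pcdhb9 (0.223). Mri1 averaged 8.52 in R6/2 x DREAM+/- and 7.93 in DREAM+/-, and 8.68 in R6/2 and 7.88 in wild type, so that it was higher in both groups with the transgene.

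Over all 139 genes of the 8 family lists, 14 rose and 10 fell in R6/2 x DREAM+/- against DREAM+/-, where 3.63% and 4.71% of all genes did. In R6/2 against wild type 15 rose and 12 fell, where 8.22% and 7.44% did. In DREAM+/- against wild type 2 rose and 2 fell, where 0.929% and 1.17% of all genes did, and in R6/2 x DREAM+/- against R6/2 5 rose and 5 fell, where 2.91% and 4.73% did. Tested directly, the gap between the R6/2 differences on the DREAM+/- and intact backgrounds passed for 0 of the 139 (limma interaction, lowest adjusted p = 0.157), and 7 had an unadjusted p under 0.05.

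Cell-type markers moved in the same comparisons. Of 14 medium spiny neuron markers, 12 fell and 0 rose in R6/2 x DREAM+/- against DREAM+/-, with a median of -0.62; Penk fell by 0.85 and Gpr6 by 0.66 (limma adjusted p = 8.94e-06 and 5.05e-05). The mean level of this list was 11.06 to 11.41 in R6/2 x DREAM+/-, against 11.71 to 11.81 in DREAM+/-, and 11.19 to 11.34 in R6/2, against 11.82 to 11.92 in wild type. Of 11 oligodendrocyte markers 4 fell and of 10 astrocyte markers 2 fell, 0 of either rose, and of 10 microglial markers 0 passed. Of 12 endothelial and mural markers 1 fell, of 9 cortical neuron markers 1 fell, and of 9 choroid plexus and 3 blood markers 0 passed, with 0 rises in any of these lists. Cortical neuron markers, from tissue that borders the striatum, had list means of 8.78 to 9.13 in R6/2 x DREAM+/-, against 8.99 to 9.19 in DREAM+/-, and of 8.30 to 8.69 in R6/2, against 8.95 to 9.08 in wild type. In R6/2 against wild type, 6 of these 9 cortical markers fell and 0 rose, where 7.44% of all genes fell and 8.22% rose. In R6/2 x DREAM+/- against R6/2, 5 of the 9 rose and 0 fell, where 2.91% of all genes rose and 4.73% fell. There 3 of 10 microglial and 2 of 12 endothelial and mural markers also rose. So did 1 each of the oligodendrocyte, astrocyte and choroid plexus markers, and 1 medium spiny neuron marker fell. The choroid plexus marker was Kcne2, at 2.68 (limma adjusted p = 0.00257). It also rose in DREAM+/- against wild type, by 1.86 (adjusted p = 0.0435). Choroid plexus list means were 8.19 to 9.38 in R6/2 x DREAM+/- and 7.55 to 9.37 in DREAM+/-. They were 6.87 to 8.57 in R6/2 and 7.99 to 8.53 in wild type. The part of all these cell-type markers in the levels of the 10 genes was not tested.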

How the data were processed

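Total RNA of whole striatum was hybridised as biotin-labelled cRNA to Affymetrix GeneChip Mouse Genome 430 2.0 arrays, 1 sample per array. The authors deposited 1 table of 45101 probe sets by 16 arrays, on the log2 scale, with values from 3.34 to 14.71; the submitters' processing notes name RMA and affy and no version. RMA normalizes arrays to each other, so a change common to most genes would not be seen. Groups and replicate numbers came from the sample titles, and replicates are biological per the series' design text.

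Probe sets with exactly 1 symbol in the platform annotation (34945) were kept without a filter on brightness; 932 had several symbols, 9160 none listed and 64 were controls. Tests used limma 3.58.1 (R 4.3.3) with 1 mean per genotype, 1 spread shared by 16 arrays and Benjamini-Hochberg adjustment over all 34945. Genes on lists were read at their brightest probe set. Same-numbered arrays did not pair: correlations of their deviations from group means ran from -0.425 to 0.279, and 8 of 24 were over 0.1.

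The members, gene lists and DNA elements were chosen with earlier results of these data known. Named genes were the 10 members, Kcnip3, Xist, the nearest profile to each member, and per list up to 3 genes in R6/2 x DREAM+/- against DREAM+/-, up to 2 more in R6/2 against wild type and up to 2 markers, by unadjusted p; Eed, Tnnt1, Acta1, Nebl, Armcx2, Armcx4 and the neighbouring genes were named after their values were seen. Alternatives were 2 other array scalings, 2 brightness filters, trended robust variance, array weights, 8 arrays only, a replicate block and leaving out arrays.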

Additional observations from a re-analysis of the deposited data

Results flagged for a closer look

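In groups of 4, a sample was picked out when its distance to the nearest other, divided by the group's range, exceeded Dixon's 95% critical value. Among 68 groups of the 17 member probe sets, 4 had such a sample, and chance gives about 1 in 20 groups. Sfmbt2 (1434353_at) read 7.48 in R6/2 x DREAM+/- replicate 3, where the other 3 read 6.86 to 6.93. Rbm11 read 5.63 in the same array, where the other 3 read 6.35 to 6.44. Without that array Sfmbt2 rose by 0.94 and Rbm11 differed by 0.62, which did not pass (limma adjusted p = 0.0696, with a range of 0.0499 to 0.509 over the alternatives). Gprasp2 read 11.25 in R6/2 replicate 4, where the others read 11.42 to 11.44, still above every wild-type array. Tnnt2 (1424967_x_at) read 5.83 in DREAM+/- replicate 4, where the others read 6.09 to 6.13, and this probe set no longer passed without that array (limma adjusted p = 0.121, the highest over the alternatives, which ran from 0.00481). Outside the 10 genes, Xist (1436936_s_at) read 6.49 in R6/2 replicate 1, where the others read 11.58 to 11.95, and Xist (1427263_at) read 5.04 in DREAM+/- replicate 2, where the others read 5.33 to 5.38.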

How the results depend on the processing

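In R6/2 x DREAM+/- against DREAM+/-, 9 member genes rose under each leave-one-out fit and 9 to 10 under the other alternatives (10 with array weights, which added Rbm11 at 0.54 and adjusted p = 0.0499), and 10 to 12 and 9 to 13 member probe sets. Without both arrays that stand apart, Sfmbt2 rose by 0.94 (adjusted p = 0.000219). The replicate block gave 12 probe sets and 9 genes and changed no call among the members. Of 412 values for member probe sets, 2 changed sign, both of Polr2a 1422311_a_at, which was -0.012 without R6/2 x DREAM+/- replicate 4, -0.001 without DREAM+/- replicate 4 and at most 0.078 leaving out 1 array. All probe sets that rose numbered 1017, 1568 with array weights and 482 to 1135 leaving out 1 array. Family genes that fell in R6/2 x DREAM+/- against R6/2 numbered 5, with 3 under quantile normalization, 2 with a common median, 8 with array weights, 2 with only the 8 arrays compared, 8 without both arrays that stand apart and 2 to 10 leaving out 1 array. Those that rose numbered 5, with 8 under the brightest-probe-set filter, 3 with 8 arrays, 3 without both arrays and 3 to 6 leaving out 1. In DREAM+/- against wild type 2 rose and 2 fell, with 4 and 3 under array weights, 2 and 4 without both arrays, and 1 to 3 and 1 to 4 leaving out 1. Leaving out 1 array gave 10 to 16 rises and 9 to 12 falls in R6/2 x DREAM+/- against DREAM+/-, and 12 to 17 and 12 to 14 in R6/2 against wild type. The cause of these shifts was not tested. With 4 arrays per group, and several probe sets near background, small differences could not be resolved.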
